A study of Mus musculus with 153 samples.

Results

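The epidermal kallikreins are secreted serine proteases, and 8 of their genes were followed here through the tail skin of 70 female and 81 male mice: Klk5, Klk6, Klk7, Klk8, Klk10, Klk11, Klk13 and Klk14. The 8 were chosen by symbol, and each was read from the probe set of highest mean among those annotated with its symbol alone. Every one of the 8 had exactly 1 such probe set, so 8 of 18810 measured genes were members. Another 13 kallikrein genes of the same cluster on chromosome 7 were measured.

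Kallikreins are made as inactive precursors by keratinocytes of the upper living epidermis and are released around the cells that are about to cornify. There they activate each other in a cascade, cut the corneodesmosome proteins that hold corneocytes together, and so allow the surface to be shed. Klk5 and Klk14 have trypsin-like activity and can start the cascade, whereas Klk7 is chymotrypsin-like. LEKTI, the product of Spink5, is the main inhibitor that restrains them, and its loss causes Netherton syndrome, a severe barrier disease.

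The samples came from a backcross in which male Mus spretus, a wild mouse species, had been bred with FVB/N females that were Hras-/-. Their F1 daughters were then mated with FVB/N males of either Hras -/- or Hras -/+ genotype. Hras encodes a small GTPase of the RAS family. Mice were untreated and kept in standard housing, tail skin was taken at 8 weeks and snap frozen, and each mouse gave 1 array. The group labelled WT, read here as Hras +/+, held 52 females and 62 males. The group labelled HET, read as Hras +/-, held 18 females and 19 males. They were processed on 3 plates with 49, 46 and 56 mice. By the cross as described, fewer +/+ than +/- pups would be born, yet more WT than HET mice were measured. The genotype labels were not checked here. Another 2 arrays, labelled as outliers by the submitters, were left out. Every mouse also carried its own mixture of FVB/N and Mus spretus chromosomes. By the cross, the only wild-type Hras copy an F1 mother could pass on came from Mus spretus. Near Hras, the effect of genotype and that of ancestry therefore cannot be told apart. The kallikrein cluster lies on the same chromosome, between 994 measured genes (Klk5) and 1003 measured genes (Klk14) before Hras in RefSeq order. The tissue label was checked against defining markers. Krt5, a basal keratin, lay between 11.59 and 12.15 on the log2 scale over all mice, and Krt10, a keratin of the differentiated layers, between 12.03 and 12.37. Skeletal muscle was present in varying amount, with Acta1, skeletal actin, between 4.57 and 9.66. The sex-linked transcripts matched the labelled sex in every mouse.

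The reference promoters of 6 of the genes are shown because their transcripts formed the 3 pairs described further on: Klk5 with Klk7, Klk8 with Klk13, and Klk6 with Klk10. Those are the pairs of highest correlation when a pair that shares a gene with a higher one is passed over, as Klk5 with Klk11 was. Each window runs from 250 bases before to 50 bases after a transcription start, taken from RefSeq on GRCm38.p6. Capitals mark a GC box, GGGCGG on either strand. These are reference letters and not the alleles of the mice.
Klk5, chr7:43842019-43842318, + strand: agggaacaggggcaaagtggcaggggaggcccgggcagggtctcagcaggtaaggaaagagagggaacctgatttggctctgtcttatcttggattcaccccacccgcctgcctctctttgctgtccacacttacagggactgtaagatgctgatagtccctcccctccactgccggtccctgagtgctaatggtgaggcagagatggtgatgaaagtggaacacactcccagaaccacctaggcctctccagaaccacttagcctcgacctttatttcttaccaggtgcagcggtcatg
Klk7, chr7:43811044-43811343, + strand: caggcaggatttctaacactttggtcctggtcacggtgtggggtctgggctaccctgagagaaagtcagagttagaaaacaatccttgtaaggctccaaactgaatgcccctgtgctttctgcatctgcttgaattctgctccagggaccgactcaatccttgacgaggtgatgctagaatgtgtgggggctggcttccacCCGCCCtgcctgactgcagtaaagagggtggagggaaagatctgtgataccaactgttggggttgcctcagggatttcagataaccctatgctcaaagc
Klk8, chr7:43797327-43797626, + strand: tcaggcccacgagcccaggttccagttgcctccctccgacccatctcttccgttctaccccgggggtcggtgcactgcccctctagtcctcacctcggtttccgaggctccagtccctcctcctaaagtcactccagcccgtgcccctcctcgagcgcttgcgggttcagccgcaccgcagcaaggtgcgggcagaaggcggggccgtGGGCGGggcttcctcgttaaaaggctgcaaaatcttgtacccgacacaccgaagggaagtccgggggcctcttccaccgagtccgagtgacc
Klk13, chr7:43712317-43712616, + strand: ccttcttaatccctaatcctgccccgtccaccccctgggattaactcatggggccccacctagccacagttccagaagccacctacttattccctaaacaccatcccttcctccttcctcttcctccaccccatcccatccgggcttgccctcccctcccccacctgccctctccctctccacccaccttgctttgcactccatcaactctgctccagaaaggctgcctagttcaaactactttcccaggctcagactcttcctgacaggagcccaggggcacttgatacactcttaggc
Klk6, the upstream start, chr7:43824294-43824593, + strand: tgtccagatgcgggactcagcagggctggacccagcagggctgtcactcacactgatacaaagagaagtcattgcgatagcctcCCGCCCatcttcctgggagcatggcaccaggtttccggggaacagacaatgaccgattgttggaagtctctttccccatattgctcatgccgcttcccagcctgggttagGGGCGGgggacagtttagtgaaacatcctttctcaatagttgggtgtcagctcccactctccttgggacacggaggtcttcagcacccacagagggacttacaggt
Klk6, the downstream start, chr7:43825200-43825499, + strand: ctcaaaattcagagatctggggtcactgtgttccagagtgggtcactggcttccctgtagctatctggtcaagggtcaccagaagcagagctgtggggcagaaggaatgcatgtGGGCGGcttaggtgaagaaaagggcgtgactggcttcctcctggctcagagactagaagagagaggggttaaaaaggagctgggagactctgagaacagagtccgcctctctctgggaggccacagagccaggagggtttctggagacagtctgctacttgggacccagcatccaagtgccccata
Klk10, chr7:43780804-43781103, + strand: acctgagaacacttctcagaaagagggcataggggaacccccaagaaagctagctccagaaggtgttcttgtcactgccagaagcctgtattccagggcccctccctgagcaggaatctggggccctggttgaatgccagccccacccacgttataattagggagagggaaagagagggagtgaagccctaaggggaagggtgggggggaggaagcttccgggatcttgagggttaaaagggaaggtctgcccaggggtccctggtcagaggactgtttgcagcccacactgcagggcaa

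RefSeq gave 10 such windows for the 8 genes, with Klk6 and Klk11 having a pair each. All lay on the + strand, and their GC content ran from 52 to 65.3%. A GC box was found in 4 of 10 windows, belonging to 3 of 8 genes, and in 35.7% of 32851 mouse promoters of the same length. In Klk8 it began 42 bases before the start, and in Klk7 49 bases before it. The sequences of Klk5, Klk10 and Klk13 held none. A C/EBP motif, TTGCNNAA, was present in both windows of Klk11 and in no other member, against 10.8% of all promoters. Neither the TATA box TATAAA, nor the AP-1 motif TGANTCA, nor the Grainyhead-like motif AACCNGTT occurred in any of the 10 windows. Over all promoters those shares were 13.6, 7.81 and 2.09%. Both strands were searched, and none of the 5 motifs shares letters with a match of another in these windows. Partners did not share a motif: within the pair of Klk8 and Klk13, and within that of Klk5 and Klk7, only 1 window had a GC box.

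The signal of the 8 kallikreins varied from mouse to mouse by amounts that differed strongly between genes. Detection above background was not tested. Levels below are log2 RMA values, on which 1 unit is a factor of 2 in signal. Levels of different probe sets are not set against each other, since probe affinity differs. Klk7, the chymotrypsin-like enzyme that cuts corneodesmosin, had the smallest SD of the 8, and its mean was above that of 99.5% of genes. Whether signal is compressed at that bright end was not tested. Klk7 ran from 10.71 through a median of 11.15 to 11.46, an SD of 0.15 over all mice. The 10th and 90th percentile mice differed 1.32-fold. Klk5, which activates other kallikreins, ran from 8.59 through 9.57 to 10.17 with an SD of 0.29. Its 10th to 90th percentile range was 1.68-fold. Klk8, also called neuropsin, ranged from 8.14 through 8.80 to 9.76, with an SD of 0.30 and a 1.74-fold range between those percentiles.

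The remaining 5 members spread more widely. Klk6, a trypsin-like enzyme best known from the nervous system, lay between 6.31 and 9.05 around a median of 7.89, an SD of 0.44. Klk10, first described as a gene of normal epithelial cells that is lost in breast cancer, ranged from 7.58 through 8.68 to 9.70 with an SD of 0.40. Klk11, another trypsin-like member, ran from 6.36 through 7.55 to 8.61, an SD of 0.42. These 3 each differed by more than 2-fold between the 10th and 90th percentile mice, at 2.11, 2.02 and 2.11-fold. Klk13, also trypsin-like, had the largest SD of the 8, from 5.49 through 6.49 to 8.20, with an SD of 0.52. Its 10th and 90th percentile mice differed 2.40-fold. Its lowest and highest mice differed 6.53-fold, and those of Klk6 6.70-fold. Klk14 ran from 3.60 through 4.69 to 6.24 with an SD of 0.37. The arrays' lower quartiles over all probe sets with values lay between 3.02 and 3.20, and over genes their median was 3.43. The lowest Klk14 values were thus close to the dim end of the arrays, where signal is compressed. Only 41.1% of genes had a lower mean than Klk14.

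Set against the 500 genes closest to each in mean level, 4 members had a larger SD than over 95% of them. The shares of like genes with a smaller SD were 97.2% for Klk13, 96.6% for Klk6, 96.6% for Klk11 and 95.4% for Klk10. For Klk8 the share was 91.4%, for Klk5 87.4%, for Klk14 79.8% and for Klk7 57.4%. This is a description of spread, and how much of it came from biology, tissue composition or probes that read Mus spretus alleles differently was not tested.

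**Figure D1:**
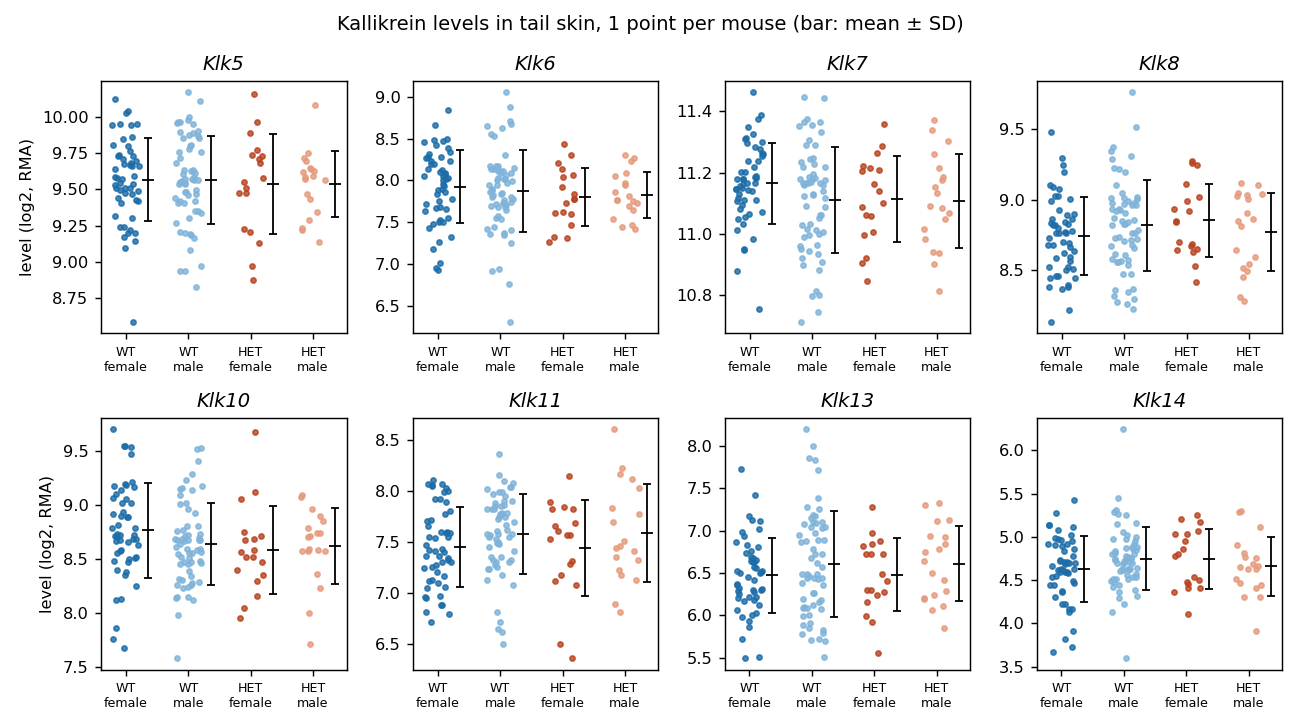
Level of each kallikrein (vertical axis, log2 RMA value, own scale per panel) by genotype and sex, 1 point per mouse, with mean ± SD beside the points. The 4 groups overlap in every panel, and the spread within groups is narrowest for Klk7 (SD 0.15 over all mice) and widest for Klk13 (SD 0.52).

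The comparison of genotypes asks whether the HET label, read as the loss of 1 working Hras copy, went with a change in the protease genes. None of the 8 members was called, against 0.112% of the 18810 genes (21 genes) at an adjusted p under 0.05 in limma with Benjamini-Hochberg adjustment. At an unadjusted p under 0.05 the count was again 0 of 8 members, with 1235 genes past it over the array. Klk5 averaged 9.56 ± 0.29 (SD) in the 52 female and 62 male WT mice and 9.54 ± 0.28 (SD) in the 37 HET mice. Klk7 averaged 11.14 ± 0.16 in WT and 11.11 ± 0.15 in HET. The WT and HET mice overlapped fully for both: HET values of Klk5 ran from 8.88 to 10.16, inside the WT range of 8.59 to 10.17. Klk6 had a median of 7.94 in WT (6.31 to 9.05) and 7.78 in HET (7.26 to 8.43). Klk10 had a median of 8.68 in WT (7.58 to 9.70) and 8.59 in HET (7.71 to 9.68). Those were the largest of the 8 fitted differences, and neither passed the test.

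The fitted difference, HET minus WT after sex and plate, was -0.08 ± 0.08 (SE) for Klk6 and -0.08 ± 0.08 for Klk10, with adjusted p-values of 0.93 and 0.91 in limma. The 95% intervals ran from -0.24 to 0.09 and from -0.23 to 0.07. For Klk7, the best resolved member, the difference was -0.03 ± 0.03 with an interval from -0.08 to 0.03. Klk5 differed by -0.03 ± 0.05, and Klk8 by 0.02 ± 0.06. Klk11, Klk13 and Klk14 had differences of -0.01, -0.01 and 0.01. The widest interval was that of Klk13, from -0.20 to 0.19, so a change of about that size in either direction could not be resolved for it. The median difference of the 8 was -0.02, and that of all genes -5.9e-05. Intervals of this kind limit how large a difference could be and do not show that the genotypes were alike.

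Females and males were compared in the same fit. None of the 8 members was called, although 3.62% of all genes (680 genes) were. At an unadjusted p under 0.05, 1 of 8 members and 16.4% of all genes passed. That member was Klk11, whose 70 females averaged 7.45 ± 0.41 (SD) and whose 81 males averaged 7.58 ± 0.41 (SD). Its difference, males minus females, was 0.14 ± 0.07 (SE), with p = 0.040 and an adjusted p of 0.27 in limma. Female values of Klk11 ran from 6.36 to 8.15 and male values from 6.50 to 8.61, which overlap over most of their length. Klk13 had an equally large difference of 0.14 ± 0.09 and an adjusted p of 0.41. Its median was 6.47 in females (5.49 to 7.72) and 6.50 in males (5.51 to 8.20), so the highest mice were males while the medians nearly coincided. Klk10 differed by -0.09 ± 0.07 and Klk7 by -0.04 ± 0.03. For Klk14, Klk8, Klk6 and Klk5 the differences were 0.07, 0.04, -0.04 and 0.00.

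The pathway and cell type lists are given beside the 3.62% of all genes called for sex. Among stress keratin and alarm genes, 2 of 16 were higher in males. Those were Stfa3, a stefin, by 0.86 ± 0.16, and S100a8, an antimicrobial calprotectin subunit, by 0.94 ± 0.29 (limma adjusted p 4.1e-05 and 0.039). The list's median difference was 0.16, against -0.01 over all genes. Among genes of the differentiated epidermis 3 of 24 were higher in males and none was lower, namely Sprr2d by 0.44 ± 0.09, Tgm3 by 0.22 ± 0.05 and Krt1 by 0.11 ± 0.03. Of 16 protease inhibitors only Spint1, a membrane inhibitor of matriptase and prostasin, was called. It was lower in males, with a difference of -0.14 ± 0.04 and an adjusted p of 0.021 in limma. The list of kallikrein substrates and junction proteins, below the substrate list, held 18 genes. Its 1 call was Lcn2, an iron-scavenging lipocalin, higher in males by 0.49 ± 0.13. Whether kallikreins cut the products of all its genes was not tested. Of 23 other epidermal proteases, Mcpt4, a mast cell chymase, was lower in males with a difference of -0.30 ± 0.08. Among the cell type lists, 2 of 10 basal epidermis genes were higher in males, 4 of 9 mast cell genes and 3 of 9 adipocyte genes were lower, and 3 of 11 dermal fibroblast genes were higher and 2 lower. Of hair genes 3 of 18 were lower, of macrophage and Langerhans genes 2 of 12 were lower, of sebaceous genes 2 of 13 were higher and 1 lower, and of 12 skeletal muscle genes none was called. Ctsd, the lysosomal protease cathepsin D, was the only member of the lists called for genotype. It was higher in HET by 0.13 (adjusted p 0.0025 in limma). Where Ctsd lies relative to Hras was not examined here. For a gene near Hras, the effect of genotype and that of ancestry cannot be told apart.

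Plates did not separate the members either. None of the 8 was called by the F test on plate, against 0.0213% of all genes (4 genes), and their adjusted p-values were all 1.00. Klk5 moved most, with means of 9.50 ± 0.31 on plate 1, 9.63 ± 0.30 on plate 2 and 9.55 ± 0.26 on plate 3 (SD, n = 49, 46 and 56). Plate took 2.90% of its variance. Over all members genotype took at most 0.776%, sex at most 2.75% and plate at most 2.90% of the variance. Most of the variation of every member was thus among mice of the same genotype, sex and plate. Only 0.808% of all genes had an unadjusted plate p under 0.05, and whether values were adjusted for plate before deposit is not recorded in the labels.

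The genotype difference was then compared between sexes and between plates. No gene was called for either interaction in limma, with 895 and 1706 genes at an unadjusted p under 0.05. Klk11 was the only member to pass that unadjusted threshold for genotype by plate, at p = 0.0049 and an adjusted p of 0.31. HET minus WT for Klk11 was 0.15 ± 0.15 (SE) on plate 1, -0.41 ± 0.13 on plate 2 and 0.15 ± 0.11 on plate 3. On plate 2 the 5 HET males ran from 6.81 to 7.51 and the 20 WT males from 6.64 to 8.08, so these groups overlapped as well. Over all plates the Klk11 means were 7.52 in WT and 7.52 in HET.

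**Figure D2:**
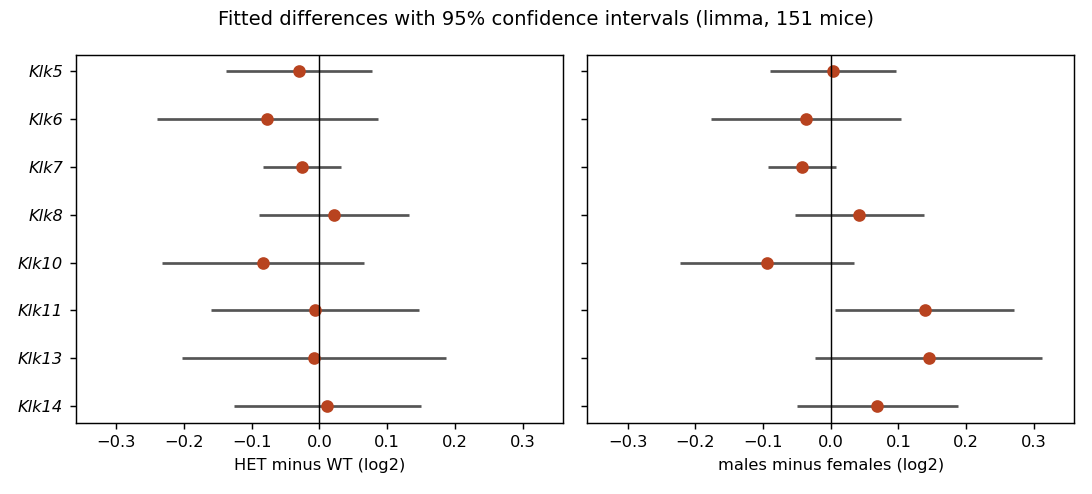
Fitted difference of each kallikrein between genotypes (left) and sexes (right) on the log2 scale, with 95% confidence intervals from limma. Every genotype interval crosses 0, and of the sex intervals only that of Klk11, with a difference of 0.14, does not.

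The other kallikreins of the cluster were not called either, but many of them were dim. None of the 13 measured was called for genotype, sex or plate. Means of Klk1b1, Klk1b5, Klk1b7-ps, Klk1b16, Klk1b22, Klk1b24 and Klk1b27 ran from 2.12 to 2.9, below the arrays' lower quartiles. Klk1b9 and Klk1b11, at 3.41 and 3.31, lay close to them. For genes that dim, the lack of a call says little. The smallest genotype p was that of Klk1b1, with 2.26 ± 0.37 (SD) in WT and 2.47 ± 0.43 in HET, below the arrays' lower quartiles of 3.02 to 3.20. Its difference was 0.21 ± 0.07 (SE), with p = 0.0047 and an adjusted p of 0.50 in limma. Klk15 came after it, with 5.67 ± 0.59 (SD) in WT and 5.37 ± 0.51 in HET, a difference of -0.28 ± 0.11 (SE). Its p was 0.0094 and its adjusted p 0.58 in limma. Klk9 averaged 8.48 ± 0.36 in WT and 8.44 ± 0.38 in HET. Klk12 and Klk4 differed between genotypes by -0.04 and 0.01.

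Many pairs of the 8 genes varied together across mice. Correlations were computed on the residuals of each gene after genotype, sex and plate, over all mice but the 2 outliers, with a permutation test of 100000 draws and Benjamini-Hochberg adjustment over the 28 pairs. In 19 of 28 pairs the correlation was called, and all 19 were positive. With this many mice an r as low as 0.17, of Klk5 and Klk10, was called. The share of other gene pairs on the array that would be called was not computed, so the count is not shown to be particular to these genes. In 18 of those 19 the sign was the same on each of the 3 plates. Values of r ran from -0.15 to 0.71 with a median of 0.23. In whole skin, a larger number of keratinocytes of the right layer and more transcript in each of them cannot be told apart.

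Klk5 and Klk7, an activator and its target in the corneodesmosome-cutting cascade, formed the closest pair. Pearson's r was 0.71 and Spearman's rho 0.67, each with a two-sided permutation p of 1e-05, the smallest that these draws can give (adjusted p 2.8e-05 for r). On the 3 plates r was 0.74, 0.79 and 0.61. It was 0.72 in WT alone, 0.69 in HET alone, and 0.68 without the 2 mice farthest from the Klk5 median. A rise of 1 log2 unit in Klk5 went with 0.38 units in Klk7, whose range is the narrower. By r, no gene outside the family was closer to Klk7 than Klk5 was, among 18789, and 3 were closer to Klk5 than Klk7 was. The margin for Klk7 was small, with an r of 0.711 for Klk5, 0.707 for Sdr9c7 and 0.704 for Mxd1. By rho, Mxd1 (0.678) was above Klk5 (0.675).

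Klk8 and Klk13 were the second pair. Here r was 0.67 and rho 0.67 (permutation p 1e-05 for both, adjusted p 2.8e-05). The plates gave 0.78, 0.57 and 0.64, females 0.62 and males 0.72. Without the 2 mice farthest from the Klk8 median r was 0.64. Klk13 moved by 1.19 log2 units per unit of Klk8. No gene outside the family was closer to Klk8 than Klk13 was, and 2 were closer to Klk13 than Klk8 was.

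Klk5 and Klk11 came next (r = 0.55) but share Klk5 with the closest pair. The highest of the pairs that share no gene with those above was Klk6 and Klk10, with r = 0.54 and rho = 0.54 (permutation p 1e-05, adjusted p 2.8e-05). On the plates r was 0.46, 0.59 and 0.58, and 0.56 without the 2 mice farthest from the Klk6 median. Klk10 moved 0.50 log2 units per unit of Klk6. Here 9 genes outside the family were closer to Klk6 than Klk10 was, and 14 closer to Klk10 than Klk6 was.

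**Figure D3:**
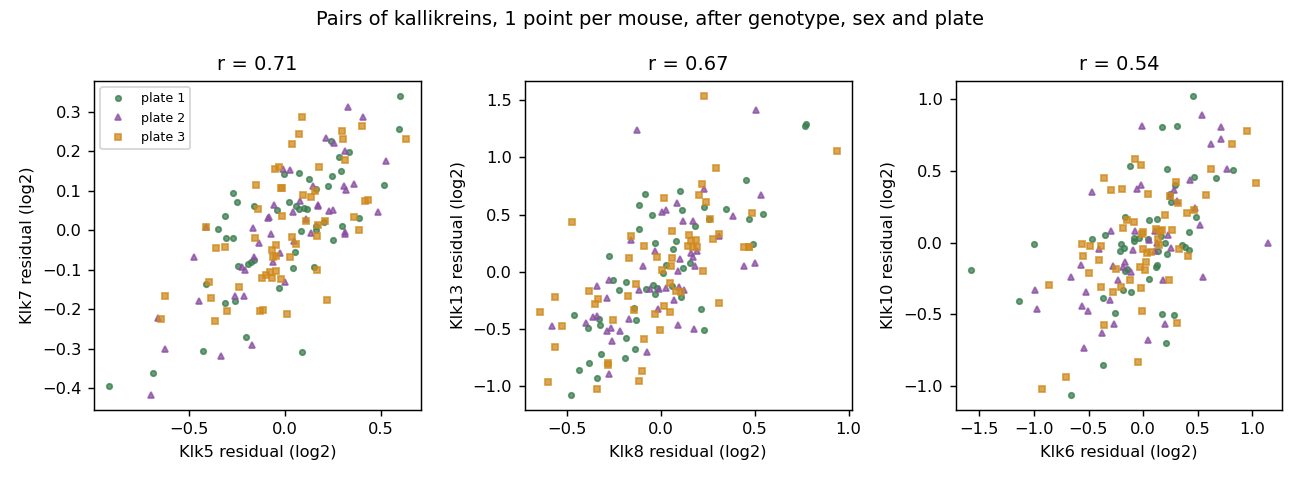
Residual log2 levels after genotype, sex and plate of the 3 partner pairs, 1 point per mouse, shaped and coloured by plate. Points rise together in each panel, with r of 0.71 for Klk5 and Klk7, 0.67 for Klk8 and Klk13 and 0.54 for Klk6 and Klk10, and the plates lie over each other.

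Klk11 was called with both genes of each of the leading pairs. Its r was 0.55 with Klk5, 0.52 with Klk13, 0.43 with Klk7 and 0.41 with Klk8. With Klk6 and Klk10, however, r was 0.10 and 0.13, and neither was called. Klk7, Klk8, Klk10 and Klk13 were each called with 6 of the 7 other members. For Klk7 these included r of 0.48 to Klk10, 0.41 to Klk6 and 0.39 to Klk8. Klk5, its closest partner, had an r of only 0.12 with Klk6 and 0.17 with Klk10. Klk14 was called with Klk13 and Klk10 alone. Its highest r was 0.23, with Klk13, and its r with Klk5 was -0.15 (adjusted p 0.098). The lowest Klk14 values lay near the arrays' lower quartile, and the part of that in its low correlations was not tested.

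The closest partners were not immediate neighbours on the chromosome. In RefSeq order the part of the cluster before the Klk1b genes reads Klk14, Klk13, Klk12, Klk11, Klk10, Klk9, Klk8, Klk7, Klk6, Klk5, Klk4, Klk15. Klk5 and Klk7 lie 2 places apart, Klk8 and Klk13 lie 5 apart and Klk6 and Klk10 lie 4 apart. Immediate neighbours included Klk5 and Klk6 with an r of 0.12, and Klk10 and Klk11 with an r of 0.13, but also Klk6 and Klk7 (0.41) and Klk7 and Klk8 (0.39). Klk9, a neighbour of Klk8 that is not among the 8, had an r of 0.63 with Klk8, 0.57 with Klk11, 0.51 with Klk7 and 0.50 with Klk13. Klk12 had its highest r, 0.38, with Klk8 as well. Klk15, the last in that order, had an r of 0.37 with Klk14 and -0.24 with Klk5.

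Genes just outside the cluster were compared as a description of the region. Over 50 measured genes on each side, 100 in all, the median r with a member lay between -0.02 (Klk5) and 0.02 (Klk14). Over the 11 other genes from Klk14 to Klk15 the median ran from 0.10 for Klk14 to 0.39 for Klk7. The Klk1b genes of the cluster, which lie beyond Klk15, were in neither set. Among those in the gene lists, the r largest in size was -0.15, between Klk1b24 and Klk11. A median that includes them was not computed. The size of r irrespective of sign had a median of 0.07 to 0.14 over the flanking genes and 0.07 to 0.11 over all genes. Flanking genes could still be close: Dkkl1, 50 places beyond the cluster, had an r of 0.68 with Klk7 and 0.64 with Klk5. Vsig10l, 11 places before it, had an r of 0.49 with Klk8 and 0.48 with Klk10. Both were singled out after their values were seen. All these genes share their arrays, and in a backcross they also share long stretches of ancestry.

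**Figure D4:**
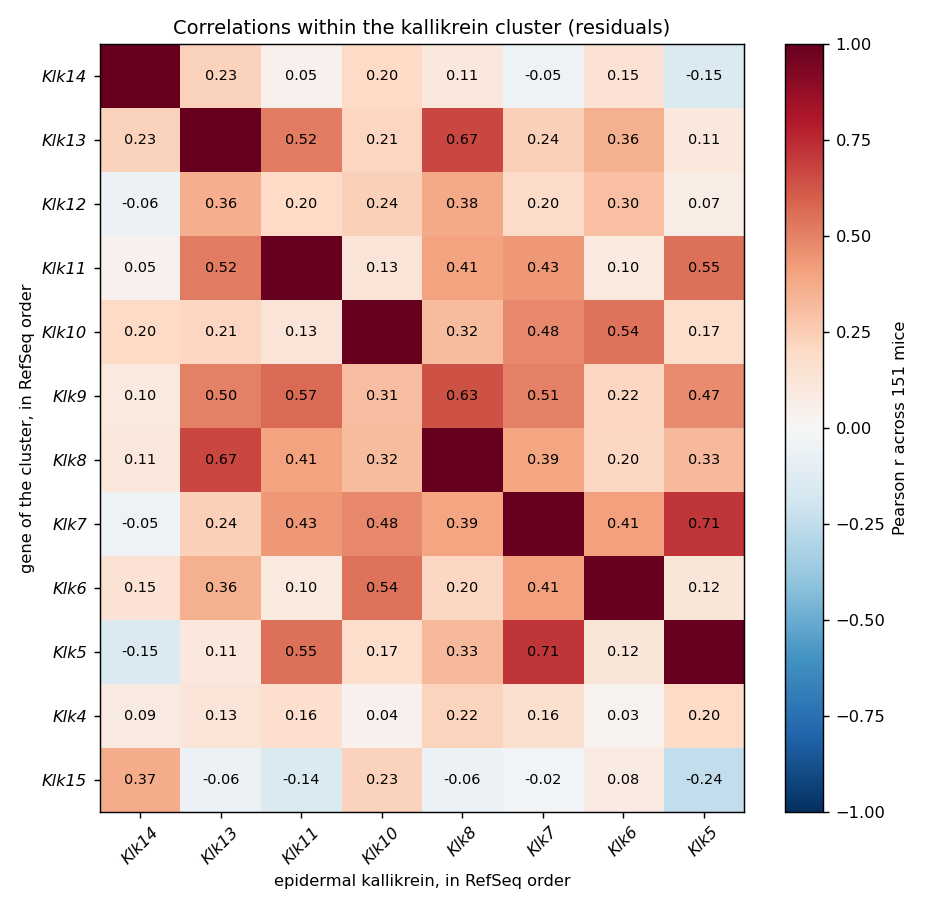
Pearson's r over mice (colour and number) between each of the 8 kallikreins (horizontal) and the 12 genes of the cluster from Klk14 to Klk15 (vertical), both in RefSeq order. High values are scattered off the diagonal, as for Klk8 with Klk13 (0.67) and Klk6 with Klk10 (0.54), while the neighbours Klk5 and Klk6 stand at 0.12.

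The members were next set against lists of genes of their pathway and of skin cell types. A list's score was the mean of its genes' standardised residuals in each mouse, and the 8 members against 15 lists gave 120 relations. Of these 65 were called by the permutation test after Benjamini-Hochberg adjustment, 45 positive and 20 negative, and 62 of the 65 had the same sign on all 3 plates. How often other genes of the array would be called with these scores was not computed. The count is therefore not shown to be particular to the kallikreins. The highest was Klk13 with the stress keratin and alarm genes, r = 0.74 and rho = 0.70, both with a permutation p of 1e-05 (adjusted p 3.3e-05 for r). The next was Klk11 with the differentiated epidermis, r = 0.71 and rho = 0.66 (permutation p 1e-05 for both). Without the 2 mice farthest from each member's median those were 0.71 and 0.68.

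Inhibitor transcripts varied together with those of the proteases. The score of 16 protease inhibitors was positively related to 7 of 8 members, most of all to Klk8 (r = 0.70) and least to Klk14 (0.13, not called). Serpina12, or vaspin, a serpin known to inhibit Klk7, had an r of 0.72 with Klk5. Wfdc5 had an r of 0.56 with Klk11, and Wfdc12 an r of 0.56 with Klk13. Both encode small whey acidic protein domain inhibitors of the skin. Spink5, whose level ran from 9.98 to 10.79 over all mice, had its highest r, 0.52, with Klk5. Of the 16 inhibitors, 5 reached an r of 0.5 with at least 1 member, which is 31.2% against 2.33% of the 18789 genes outside the family. Shares in other epidermal lists ran from 0% for the basal epidermis to 75% for stress keratin and alarm genes, with 66.7% for the differentiated epidermis. That limit of 0.5, here and for the other lists, was set after the correlations were seen, and the shares are descriptions with no test.

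Other epidermal proteases went the same way. Their score, over 23 genes, was positively related to 7 of 8 members, with r = 0.63 for Klk7, 0.54 for Klk6 and 0.52 for Klk11. Tmprss13, a membrane-bound serine protease, had an r of 0.68 with Klk7. Asprv1, the aspartic protease that processes filaggrin, had an r of 0.66 with Klk5, and Prss8, prostasin, an r of 0.63 with Klk7. On the plates the value for Prss8 and Klk7 ran from 0.48 to 0.89. In this list 9 of 23 genes reached an r of 0.5 with a member. Klk6 was related to this score and to the inhibitors (r = 0.32) but not to the score of the substrate list, where its r of 0.15 was not called.

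Substrates and junction proteins were related to 6 of 8 members, the exceptions being Klk6 and Klk14. Klk11 had the highest r with their score, 0.59, followed by Klk8 at 0.55 and Klk5 at 0.54. Pkp3, the desmosomal plaque protein plakophilin 3, had an r of 0.68 with Klk11. Il1f9, or interleukin 36 gamma, an alarm cytokine, had an r of 0.64 with Klk11. Cdsn, corneodesmosin, the adhesive protein that Klk5 and Klk7 cut, had an r of 0.63 with Klk7. It was 0.71, 0.65 and 0.55 on the 3 plates.

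The differentiated epidermis score separated the members further. It was related to Klk11 (0.71), Klk8 (0.65), Klk5 (0.62), Klk7 (0.54), Klk13 (0.51) and Klk10 (0.21), while Klk6 (0.09) and Klk14 (0.04) were not called. Of its 24 genes, 16 reached an r of 0.5 with at least 1 member. The basal epidermis score ran differently, with r = 0.34 for Klk11, 0.20 for Klk5 and -0.25 for Klk6, and 0 of its 10 genes reached 0.5. Regulators of differentiation were related to 5 members, led by Klk5 (0.56) and Klk11 (0.47). Stress keratin and alarm genes were related to 7 members. After Klk13 came Klk8 (0.59), Klk11 (0.46) and Klk6 (0.40), and the exception was Klk5 at 0.12. Klk7 had an r of 0.20 with that score, made of 0.57 on plate 1, -0.0012 on plate 2 and -0.0047 on plate 3, so the relation was not seen on every plate.

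Among lists of other skin compartments, most of the called relations were negative, but many relations were not called. Only the skeletal muscle score was called for most of the 8 members. The skeletal muscle score was negatively related to 6 members, from -0.20 for Klk6 to -0.37 for Klk7. The dermal fibroblast score was negatively related to 4, with -0.40 for Klk8 and -0.36 for Klk11. Adipocyte genes were negatively related to 3, macrophage and Langerhans cell genes to 2 and mast cell genes to 1. Hair shaft and root sheath genes were positively related to Klk14 (0.26) and Klk10 (0.22) and negatively to Klk5 (-0.34). The sebaceous gland score had an r of -0.32 with Klk13 and -0.22 with Klk14. With the muscle and fibroblast scores also removed from the residuals, r was 0.67 for Klk5 and Klk7, 0.64 for Klk8 and Klk13 and 0.57 for Klk6 and Klk10, and 17 of 28 pairs were called.

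**Figure D5:**
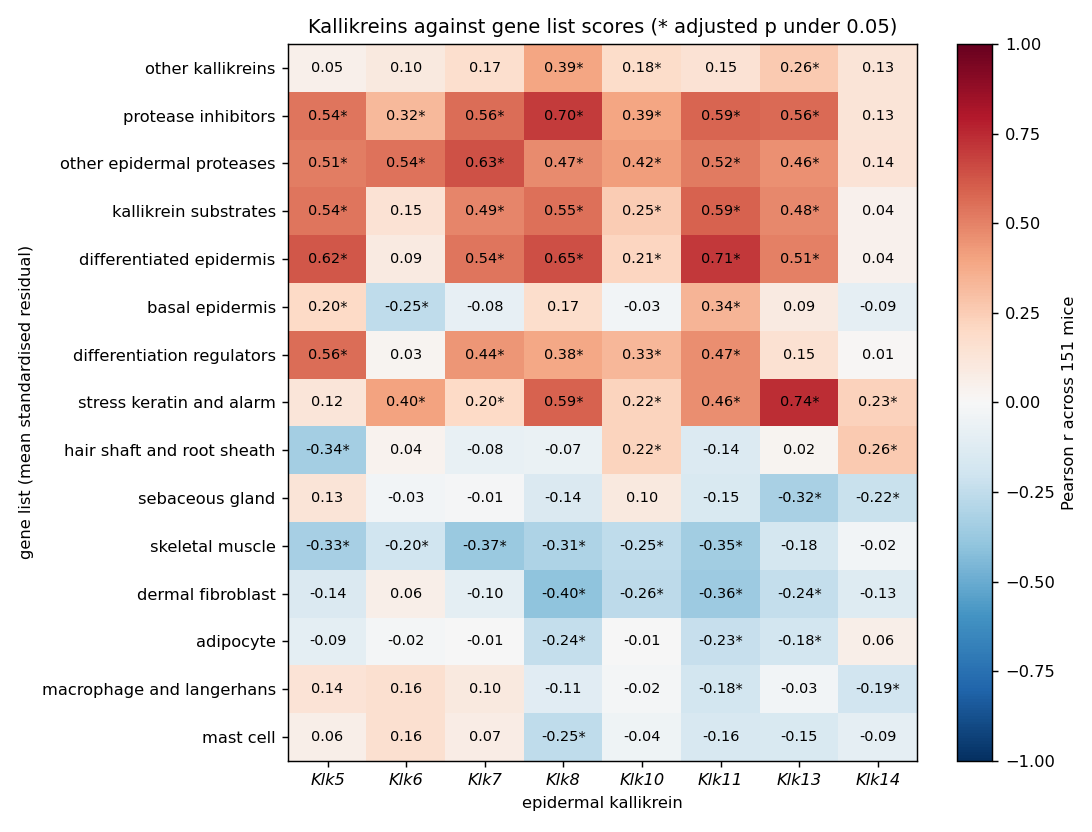
Pearson's r over mice (colour and number) between each kallikrein (horizontal) and the score of each of 15 gene lists (vertical), with * for an adjusted p under 0.05. Epidermal lists are mostly positive, led by Klk13 with stress keratin and alarm genes (0.74), whereas muscle and fibroblast lists are mostly negative, and the Klk14 column is pale.

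The 3 partnerships were also present in residuals from which an epidermal score had been removed. With the differentiated epidermis and hair scores also taken out, Klk5 and Klk7 still had an r of 0.61, Klk6 and Klk10 one of 0.55 and Klk8 and Klk13 one of 0.51, each with a permutation adjusted p of 4.7e-05. Klk7 with Klk10 (0.44), Klk6 with Klk7 (0.43) and Klk6 with Klk13 (0.36) were called there as well. Others were not: r between Klk5 and Klk8 went from 0.33 to -0.10, and between Klk8 and Klk11 from 0.41 to -0.11. The other called pairs of Klk11 were lower too, at 0.22 with Klk5 and 0.25 with Klk13, both still called, and 0.08 with Klk7, no longer called (permutation adjusted p 0.42). Between Klk5 and Klk13 r went from 0.11 to -0.28, which was called (permutation adjusted p 0.0026). In all 11 of 28 pairs were called on those residuals. With the stress keratin and alarm score removed instead, r went from 0.67 to 0.43 for Klk8 and Klk13, which was still called, and from 0.36 to 0.09 for Klk6 and Klk13, which was not. That last count was again 11 of 28.

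Finally, the genes closest to each member across the array were listed, chosen by r itself and so given as a description with no test. Of the 18789 genes outside the family, 1.13% had an r of at least 0.5 with Klk5, 0.900% with Klk7 and 0.538% with Klk11. For Klk13 the share was 0.314%, for Klk8 0.197%, for Klk10 0.154% and for Klk6 0.0958%, and no gene reached it with Klk14. Closest to Klk5 were Dgat2 (0.76), an enzyme of triglyceride synthesis, Ubl3 (0.74), a ubiquitin-like protein, and Serpina12 (0.72). Its lowest was Nrp2, a semaphorin receptor, at -0.55. Klk7 was closest to Sdr9c7 (0.71), a dehydrogenase needed for barrier lipids, Mxd1 (0.70), a MYC antagonist of differentiating cells, and Lypd5 (0.69). Its lowest was B230219D22Rik at -0.54.

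Among the genes closest to Klk8, Klk13 and Klk11, Il1f9 was in the top 10 of all 3. Klk8 was closest to Calm4 (0.62), a calmodulin-like protein of differentiating epidermis, Il1f9 (0.61) and Smpd3 (0.59), a neutral sphingomyelinase. Its lowest r, -0.62, was with Ptgis, prostacyclin synthase. Klk13 was closest to Rbp2 (0.75), a retinol-binding protein, and then to Krt6b (0.67), a keratin induced by wounding, and S100a8 (0.67). Its lowest was Zfp395 at -0.56. Klk11 was closest to Pkp3 (0.68), Nccrp1 (0.66) and Il1f9 (0.64), and lowest with Id2 (-0.54), an inhibitor of helix-loop-helix factors.

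The 10 genes closest to Klk6 and the 10 closest to Klk10 had 4 in common, Sprr1a, Plet1, Pgap2 and Atp1b1. Klk10 was closest to Sprr1a (0.75) and Sprr4 (0.73), small proline-rich precursors of the cornified envelope, and to Plet1 (0.69), with Raph1 lowest at -0.46. The r of Sprr1a and Klk10 was 0.74, 0.77 and 0.75 on the 3 plates. Klk6 was closest to Ctsl (0.62), the lysosomal protease cathepsin L, Sptlc1 (0.58), a subunit of the first enzyme of sphingolipid synthesis, and Atp1b1 (0.57), a sodium pump subunit. Its lowest was Dync1h1 at -0.48. Klk14 had no gene above 0.39, which was Gjb2, the gap junction protein connexin 26. After it came Phlda2 (0.38) and Krtap19-9b (0.37), a keratin-associated protein of the hair shaft, and Rnf216 was lowest at -0.38. On plate 2 the r of Klk14 with Krtap19-9b was 0.20, against 0.53 and 0.34 on plates 1 and 3.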

How the data were processed

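Tail skin RNA of 153 mice was measured on Affymetrix arrays, 1 per mouse. The authors deposited log2 values per probe set, made with RMA per the submitters' processing notes. Its version, the genome build and any further correction were not given in the sources used here. Among 35556 rows, 171 were empty, 21201 named 1 gene symbol, 1881 several and 12303 none. Each of 18810 genes was read from its probe set of highest mean. The level of Hras itself is not reported here. Precision here rests on how many mice there were.

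Genotype, sex and plate were fitted together over all genes with limma 3.58.1 (R 4.3.3; lmFit and eBayes with a mean-variance trend), with Benjamini-Hochberg adjustment and a threshold of 0.05. Residual correlations used Python 3.11.15, numpy 2.4.6 and scipy 1.17.1, with 100000 permutations. Figures used matplotlib 3.10.9. The fits and correlations were tested on simulated data. Some genes are in more than 1 list, such as Mcpt4 among proteases and mast cell genes. The members, gene lists and tests were chosen with earlier results of these data known. Besides the members, the genes named are the other kallikreins of the cluster, the 3 with the highest and the 1 with the lowest r per member, up to 4 called genes per list, and the 3 with the largest r in the inhibitor, protease and substrate lists; markers, Spink5 and flanking genes were added after their values were seen, and so were the counts of list genes at r of 0.5 or more. The labels number plates and mice but pair no samples, and each mouse was taken as 1 independent sample. Alternatives changed the scaling, the outlier arrays, the probe set, the filter on low genes, the trend, robust weights and the plate term. They also changed which plates, sexes or genotypes were used. Averaging probe sets could not change the values of the members, as each had 1 probe set. Pair correlations were also run with list scores removed from the residuals.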

Additional observations from a re-analysis of the deposited data

How the results depend on the processing

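No paired analysis was possible because the labels pair no mice across genotypes or sexes. No member was called for genotype, sex or plate under any alternative run; adjusted p-values ran from 0.32 upwards for genotype and from 0.21 upwards for sex, both lowest for Klk11. As a share of the genes tested, limma called 0.112% for genotype, but 0% on plate 1, 0% on plate 3 and 0% in males alone, and 0.0957% on plate 2 and 0.0532% in females alone; at an unadjusted p under 0.05 the first 3 passed 887, 1809 and 962 genes. For sex it called 3.62%, but 0.276, 0.383 and 0.611% on plates 1, 2 and 3 alone and 0.138% in HET mice alone. Pairs called, 19 of 28 in all, were 11 on plate 2, 9 on plate 3, 10 in HET mice, 11 after the differentiated epidermis and hair scores and 11 after the stress score. List relations, 65 of 120 in all, were 41 on plate 1, 41 on plate 3 and 37 in HET mice.

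None of the differences between genotypes that changed sign was called. Some on single plates, such as 0.17 for Klk13 on plate 3, were larger in size than the -0.08 of Klk10 in the main fit. For Klk11 HET minus WT became 0.00239 without plate, 0.00689 with plate as a random block, 0.15 on plate 1, 0.15 on plate 3 and 0.0022 in males. For Klk13 it became 0.0188 in a robust fit, 0.00431 without plate, 0.0105 with a random block, 0.17 on plate 3 and 0.0175 in females. For Klk8 it became -0.093 on plate 1, -0.0881 on plate 2 and -0.051 in males, and for Klk14 -0.16 on plate 2 and -0.0887 in males. Plate 1 gave 0.0805 for Klk6 and 0.0401 for Klk7, and plate 3 gave 0.00328 for Klk5 and 0.0732 for Klk10. Males minus females for Klk5 became -0.00134 with both outlier arrays, -0.000737 without plate, -0.0026 with a random block, -0.0313 on plate 2 and -0.000186 in WT. On plate 3 it became 0.0571 for Klk6 and 0.0804 for Klk10. In HET mice it became 0.00457 for Klk6, -0.0498 for Klk8, 0.0397 for Klk10 and -0.11 for Klk14.

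Correlations that changed sign involved weak pairs or a removed score. On plate 1, r was -0.0691 for Klk6 and Klk14. On plate 2 it was -0.0139 for Klk5 and Klk6, -0.17 for Klk5 and Klk13, -0.00357 for Klk10 and Klk14 and -0.0897 for Klk11 and Klk14. It was -0.11 for Klk6 and Klk14 in HET mice, 0.0546 for Klk7 and Klk14 in females and -0.0517 for Klk8 and Klk14 in males. After the epidermis and hair scores it was -0.10 for Klk5 and Klk8, -0.28 for Klk5 and Klk13, -0.065 for Klk7 and Klk13, -0.11 for Klk8 and Klk11, -0.0585 for Klk10 and Klk11 and -9.4e-05 for Klk11 and Klk14. After the stress score, an alternative chosen after seeing the data, it was -0.0461 for Klk6 and Klk8, -0.11 for Klk6 and Klk11, -0.0399 for Klk8 and Klk14 and -0.0707 for Klk11 and Klk14. After the muscle and fibroblast scores, also chosen after seeing the data, it was -0.00879 for Klk10 and Klk11. In HET mice Klk14 had an r of -0.10 with the hair score and 0.0924 with the sebaceous score. The cause was not tested. Over all alternatives r ran from 0.61 to 0.79 for Klk5 and Klk7, from 0.43 to 0.78 for Klk8 and Klk13 and from 0.45 to 0.59 for Klk6 and Klk10.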

Other observations

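The 2 arrays labelled as outliers were both of WT males on plate 2, and their kallikrein values were set beside the 20 other WT males of that plate. For 3 of the 8 genes, 1 of the 2 arrays lay above all 20, and whether it was the same array each time was not examined. The higher Klk13 value was 8.54 against a highest value of 8.00 in the 20. That of Klk8 was 9.54 against 9.37, and that of Klk11 was 8.27 against 8.08. For Klk5, Klk6, Klk7, Klk10 and Klk14 both arrays lay within the range of the 20.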
